A study of Homo sapiens with 34 samples.

Results

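Chromatin immunoprecipitation followed by sequencing (ChIP-seq) of Flag-tagged proteins in SW872 cells gave 236 regions of chromosomes 1 to 22 and X that held a peak of both TFE3 and YAP-TFE3 (YT). Peaks of 6 construct lists that shared at least 1 bp were merged into 6543 regions, and the 236 regions make 3.61% of them. They are called shared regions here. A YAP5SA peak was present in 91 of them and absent from 145. The regions were selected on the TFE3 and YAP-TFE3 peak calls and split by the YAP5SA calls. Their TFE3 and YAP-TFE3 values are therefore descriptions, and the counts of 236, 91 and 145 are not results in themselves.

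SW872 is a human liposarcoma cell line. The cells were stably transduced with TFE3, YAP-TFE3, YAP5SA, TAZ-CAMTA1 (TC), TAZ4SA, CAMTA1 or an empty vector (EV), and every construct carried a Flag tag. YAP5SA and TAZ4SA are forms of YAP and TAZ in which the serines phosphorylated by LATS kinases are replaced by alanine. The 34 libraries were 18 Flag immunoprecipitations (3 per construct), 2 IgG immunoprecipitations from EV cells and 14 inputs. All 6 proteins were over-expressed in a cell line that is not a hemangioendothelioma, so each list describes an introduced protein in liposarcoma chromatin. Cells carrying the constructs were grown near confluence, but for the CAMTA1 cells the sample descriptions state a collection before confluence, which the study's methods for ChIP-seq do not.

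TFE3 belongs to the MiT family of basic helix-loop-helix leucine zipper factors. These bind E-box sequences as dimers and are known for controlling lysosome and autophagy genes. YAP is a coactivator of the Hippo pathway that has no DNA-binding domain and reaches chromatin mostly through TEAD factors. YAP-TFE3, a fusion protein of epithelioid hemangioendothelioma, joins the amino terminus of YAP, which binds TEAD, to the carboxy terminus of TFE3, which holds the basic helix-loop-helix leucine zipper. A region can thus hold YAP-TFE3 together with TFE3, with YAP5SA, or with both. The comparison asks how the places that full-length TFE3 occupied looked in the list of the fusion and in the lists of the other constructs.

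The authors pooled replicates before calling peaks, so each construct has 1 list and no value here has a spread between replicates. No test between constructs was possible. Intervals below are 95% intervals from the number of regions (Wilson for shares, Newcombe for differences of shares, order statistics for medians). They cover counting error only and treat neighbouring regions as independent. Fold enrichment is the fragment pileup at the summit, the highest point of a peak, over the local background. The peak caller adds 1 to the pileup and 1 to the background, and both are on its own scale. Fragments are given as whole fragments, whereas backgrounds are on the scale of the caller, on which 1 fragment counted 0.355 for TFE3 and 0.356 for YAP-TFE3. Depth differed between the lists. The genome-wide coverage recovered from the peak values was 8.61 fragments per base for TFE3, 10.5 for YAP-TFE3 and 10.7 for YAP5SA, and 2.21 to 2.52 for CAMTA1, TAZ4SA and TAZ-CAMTA1. An absent peak means that none was called at that depth.

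Full-length TFE3 had few called peaks, and most of them were also in the fusion list. Of 298 regions with a TFE3 peak, 236 (79.2%, 74.2 to 83.4) held a YAP-TFE3 peak, against 50.7% of all merged regions. That background is set by the YAP-TFE3 list itself and is not an expected overlap. The shared regions were 7.12% (6.29 to 8.04) of the 3316 regions with a YAP-TFE3 peak. In all 236 the TFE3 and the YAP-TFE3 peak overlapped each other directly, and 1 region held 2 TFE3 peaks. The other 62 TFE3 regions, referred to as TFE3-alone regions, had no YAP-TFE3 peak.

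The share of TFE3 regions that also held YAP-TFE3 followed the strength of the TFE3 peak. Ranked by TFE3 −log10 q and divided into 4 bins, the strongest bin of TFE3 regions held YAP-TFE3 in 74 of 75 (98.7%, 92.8 to 99.8). The next bins held it in 68 of 75 (90.7%, 82.0 to 95.4), 54 of 74 (73.0%, 61.9 to 81.8) and 40 of 74 (54.1%, 42.8 to 64.9). The strongest and the weakest bin did not overlap in their intervals. A −log10 q above 5 was found for the TFE3 peak of 173 of 236 shared regions (73.3%) and of 15 of 62 TFE3-alone regions (24.2%). The strongest TFE3-alone region was chr17:78075007-78075423 (GRCh37), with a TFE3 fold enrichment of 7.80 from 107 fragments and the nearest YAP-TFE3 peak 993306 bp away.

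**Figure D1:**
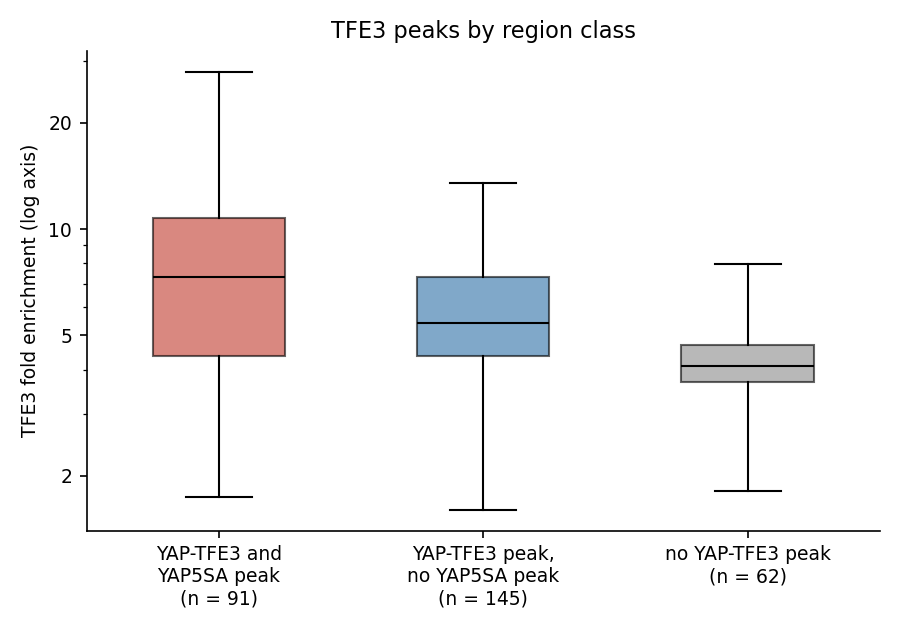
TFE3 fold enrichment (vertical log axis) in shared regions with a YAP5SA peak, shared regions without one, and TFE3 regions without a YAP-TFE3 peak. Boxes show the quartiles and median, and whiskers the lowest and highest region. The medians step down from 7.33 to 5.41 to 4.10.

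TFE3 fold enrichment was highest where YAP5SA was also called. It ranged from 1.74 to 27.9 with a median of 7.33 (5.91 to 8.30) in the 91 shared regions with YAP5SA. In the 145 without YAP5SA it ranged from 1.60 to 13.5 with a median of 5.41 (5.15 to 5.76). In the 62 TFE3-alone regions the range was 1.81 to 7.95 and the median 4.10 (3.83 to 4.45). The ranges overlap widely, and the intervals of the 3 medians do not.

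YAP-TFE3 was ordered in the same way. Its fold enrichment had a median of 8.37 (6.83 to 9.76) in shared regions with YAP5SA, with a range of 1.94 to 23.8. Without YAP5SA the median was 5.78 (5.33 to 6.0) and the range 1.65 to 19.6. The YAP-TFE3 peaks outside the TFE3 list had lower medians, at 4.88 in 1270 regions with YAP5SA and 4.08 in 1810 regions without. In the YAP-TFE3 list ranked by −log10 q, 79 of 91 shared regions with YAP5SA (86.8%) and 77 of 145 without (53.1%) had a peak in the top 25% of the list. The fragments behind these summits had medians of 137 and 79 for YAP-TFE3 and of 111 and 64 for TFE3, with and without YAP5SA.

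Within a region the fusion and full-length TFE3 reached similar fold enrichment. The ratio of YAP-TFE3 to TFE3 fold enrichment had a median of 0.996 (0.955 to 1.07) over the 236 regions. YAP-TFE3 was higher in 116 and TFE3 in 120. The median ratio was 1.09 (0.972 to 1.16) with YAP5SA and 0.976 (0.935 to 1.04) without. YAP-TFE3 was over 2 times TFE3 in 8 regions, 7 of them with YAP5SA, and TFE3 was over 2 times YAP-TFE3 in 6. Across the 236 regions the 2 fold enrichments had a Spearman rho of 0.709 and a Pearson r of 0.738 on log2 values. This is a description across regions, which share their libraries and local background and are not replicates. Regions called in only 1 of the 2 lists (62 for TFE3 and 3080 for YAP-TFE3) have no ratio. Selection on both calls can draw the ratio toward 1, and its part was not tested.

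**Figure D2:**
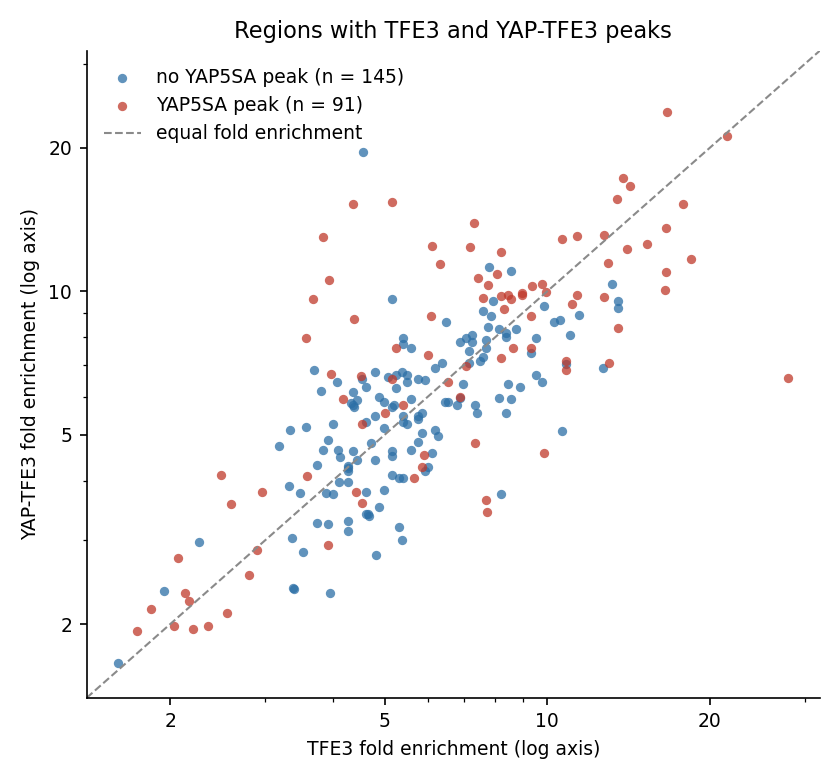
TFE3 fold enrichment (horizontal log axis) against YAP-TFE3 fold enrichment (vertical log axis), 1 point per shared region, red with and blue without a YAP5SA peak. The dashed line marks equal values, with 116 points above it and 120 below.

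The regions with YAP5SA and the highest TFE3 −log10 q, a choice that favours high TFE3 values, show how the 3 lists lined up. At chr11:85779777-85781057 TFE3 was 21.5-fold enriched, YAP-TFE3 21.2-fold and YAP5SA 8.47-fold, and TAZ4SA (7.21-fold) and TC (5.01-fold) were present too. At chr17:7137455-7138327 the values were 16.7 for TFE3, 23.8 for YAP-TFE3 and 6.06 for YAP5SA. Both regions had the fusion near or above full-length TFE3, and YAP5SA well below it. At chr5:41904147-41904817 the 3 values were 17.9, 15.3 and 6.89, at chr19:49457769-49458464 they were 18.4, 11.7 and 6.97, and at chr17:6915335-6916082 they were 16.5, 10.1 and 5.44. These 3 regions had TFE3 highest, YAP-TFE3 next and YAP5SA lowest, and none held a TAZ4SA or TC peak. The largest TFE3 fold enrichment among the shared regions, 27.9 from 316 fragments, was at chr21:43853447-43858016. There YAP-TFE3 was 6.58-fold and YAP5SA 8.76-fold enriched, which gave the lowest ratio of YAP-TFE3 to TFE3 (0.236).

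Without YAP5SA the regions described first are again those with the highest TFE3 −log10 q. At chr9:6680841-6681749 TFE3 was 13.5-fold and YAP-TFE3 9.54-fold enriched, and at chr1:10092661-10093238 the values were 13.5 and 9.24. They were 13.2 and 10.4 at chr17:17875992-17876434 and 12.7 and 6.91 at chr19:15236276-15236729. Next came chr14:24682443-24683009 (11.4 and 8.94), chr12:122750777-122751213 (11.0 and 8.11) and chr1:11795873-11796497 (10.8 and 7.05). In each of these 7 regions TFE3 exceeded YAP-TFE3, a direction that their choice on TFE3 favours. Over all 145 regions TFE3 was higher in 79 and YAP-TFE3 in 66. In the 7 regions the TFE3 and YAP-TFE3 summits lay 1 to 32 bp apart. The region with the highest TFE3 −log10 q of this class, chr2:33091798-33092088, went the other way. Its TFE3 fold enrichment of 4.55 (484 fragments over a background of 37.0) stood against 19.6 for YAP-TFE3 (258 fragments over 3.73), the highest ratio of all shared regions (4.31). The next highest ratios were 3.50 at chr9:132096078-132097068 and 3.39 at chr7:104652898-104653854, both with YAP5SA and described further on. After chr21:43853447-43858016 the lowest were 0.445 at chr2:11093788-11094271, with TFE3 at 7.74, YAP-TFE3 at 3.45 and YAP5SA at 3.41, and 0.456 at chr10:47642268-47642711, with TFE3 at 8.21, YAP-TFE3 at 3.75 and no YAP5SA peak.

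A high −log10 q did not always mean a high fold enrichment. At chr2:109815830-109816251, which had the largest TFE3 −log10 q of the shared regions (145), TFE3 was 2.20-fold, YAP-TFE3 1.95-fold and YAP5SA 1.77-fold enriched. The TFE3 summit there held 4009 fragments over a local background of 646. In 14 shared regions both TFE3 and YAP-TFE3 were enriched less than 3-fold. Their recovered TFE3 backgrounds ran from 15.0 to 646, against the genome-wide floor of 3.06 that applied in 161 of 234 shared regions with a recovered background. Of these 14 regions, 11 held YAP5SA and 3 did not. Among the named regions chr5:10066-11772, close to the first base of the chromosome, also had a high background (76.0) beside fold enrichments of 4.51 for TFE3, 6.65 for YAP-TFE3 and 4.54 for YAP5SA. As a check, the 14 regions were left out, a choice made by fold enrichment and not by background. High-background regions with higher fold enrichment, such as chr5:10066-11772, stayed in, so the part of all such places was not measured. The medians of TFE3 and YAP-TFE3 with over without YAP5SA were then 1.47 and 1.64 times, against 1.36 and 1.45 times with all regions.

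YAP5SA was called in 38.6% (32.6 to 44.9) of the shared regions, against 57.2% of all merged regions, a share that the YAP5SA list itself raises because each of its peaks makes a region. A closer comparison is with the YAP-TFE3 regions outside the TFE3 list, where YAP5SA was called in 1270 of 3080 (41.2%). The difference was -2.67 percentage points (-8.90 to 3.90), an interval that includes 0. The 2 groups were not matched for YAP-TFE3 strength. Median YAP-TFE3 fold enrichment was 6.28 in shared regions and 4.35 in the YAP-TFE3 regions outside the TFE3 list. Among the latter it was higher with YAP5SA (4.88) than without (4.08). The YAP5SA shares at equal YAP-TFE3 strength were not compared, so a difference there is not excluded. In TFE3-alone regions YAP5SA was called in 5 of 62 (8.06%), which was 30.5 points (19.3 to 38.3) below the shared regions. Those 5 regions had YAP5SA fold enrichments of 2.48 to 3.98. The YAP5SA share among shared regions changed with TFE3 strength. It was 48 of 74 (64.9%) in the strongest TFE3 bin, 23 of 68 (33.8%) in the next, 9 of 54 (16.7%) in the third and 11 of 40 (27.5%) in the weakest.

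The YAP5SA peaks in shared regions were of ordinary strength for their list. Their fold enrichment had a median of 4.57 (4.32 to 4.96) and a range of 1.60 to 10.2. In the 1270 regions with YAP-TFE3 and YAP5SA but no TFE3 peak the median was 5.54 (5.39 to 5.61), and the intervals do not overlap. In the YAP5SA list ranked by −log10 q, 28 of 91 (30.8%) stood in the top 25%. With YAP5SA reduced to 299 peaks by −log10 q, as many as TFE3 has, 9 of the 236 shared regions held one.

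Of the 3 proteins YAP5SA was the least enriched in 72 of the 91 regions. It was below YAP-TFE3 in 82 (90.1%) and below TFE3 in 76. Outside the TFE3 list YAP5SA was below YAP-TFE3 in 475 of 1270 regions (37.4%). The ratio of YAP-TFE3 to YAP5SA fold enrichment had a median of 1.65 (1.39 to 1.84) in the shared regions and 0.901 (0.878 to 0.925) in the others. The first value rests on YAP-TFE3 peaks that the rule helped to choose, so the order is given as a description.

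TAZ-CAMTA1 and TAZ4SA, which also work through TEAD factors, were rarely called in shared regions. TC held a peak in 11 of 236 (4.66%, 2.62 to 8.15), against 18.0% of all merged regions, and TAZ4SA in 11 of 236, against 17.7%. Both backgrounds are set by the TC and TAZ4SA lists themselves. Most of the TC and TAZ4SA peaks in shared regions lay where YAP5SA was present. TC was called in 10 of 91 regions with YAP5SA (11.0%) and in 1 of 145 without (0.690%), a difference of 10.3 points (4.49 to 18.4). TAZ4SA was called in 9 of 91 (9.89%) and 2 of 145 (1.38%), a difference of 8.51 points (2.73 to 16.4). Either of them was present in 14 of 91 and in 3 of 145 regions, and both together in 5 and 0 (0 of 145 allows up to 2.07%). When TFE3 and YAP-TFE3 peaks had to cover 50% of each other, the differences were 1.99 points (-2.24 to 8.91) for TC and 3.40 points (-1.23 to 10.9) for TAZ4SA, and both intervals then include 0.

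YAP-TFE3 regions that held YAP5SA had far fewer TAZ peaks when TFE3 was also there. TC was called in 10 of 91 with TFE3 and in 462 of 1270 without (36.4%), a difference of -25.4 points (-31.0 to -16.9). TAZ4SA was called in 9 of 91 and in 455 of 1270 (35.8%), a difference of -25.9 points (-31.3 to -17.7). One or the other was found in 15.4% (9.39 to 24.2) and in 51.4% (48.7 to 54.2). Among YAP-TFE3 regions without YAP5SA the TC share was also lower with TFE3, at 1 of 145 against 131 of 1810 (7.24%), a difference of -6.55 points (-7.95 to -3.24). The TAZ4SA shares there were 2 of 145 and 50 of 1810 (2.76%), and the interval of their difference (-2.70 to 2.19 points) includes 0.

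**Figure D3:**
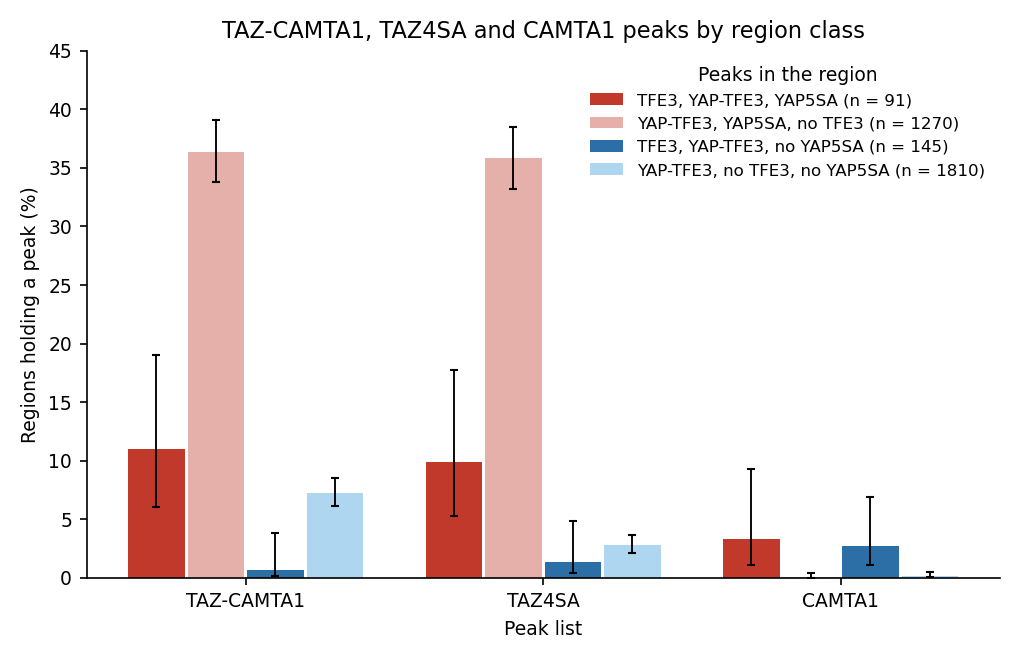
Share of regions holding a TAZ-CAMTA1, TAZ4SA or CAMTA1 peak (vertical axis, percent) in 4 classes of YAP-TFE3 regions, with 95% Wilson intervals. With YAP5SA, TAZ-CAMTA1 stands at 11.0% in shared regions and 36.4% without TFE3. CAMTA1 peaks are few, with 3 of 91 against 1 of 1270 regions with YAP5SA and 4 of 145 against 3 of 1810 without. CAMTA1 was called in 2.38% of all merged regions.

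This difference varied with peak strength. At a YAP-TFE3 fold enrichment of at least 8.37, the median of the shared regions with YAP5SA, TC was called in 5 of 46 with TFE3 (10.9%) and in 78 of 117 without (66.7%). TAZ4SA was called in 5 of 46 and in 60 of 117 (51.3%). In 4 bins at the quartiles of YAP-TFE3 fold enrichment, the weakest had TC in 3 of 18 shared regions (16.7%, 5.84 to 39.2) and in 22.1% (17.8 to 27.2) of the others, and TAZ4SA in 1 of 18 (5.56%, 0.988 to 25.8) and 25.8% (21.2 to 31.1), with intervals that overlap. The middle 2 bins held only 7 and 5 shared regions, with TC in 0 of 7 (up to 35.4%) and 0 of 5 (up to 43.4%) and TAZ4SA in 0 of 7 and 1 of 5. In the strongest bin TC was called in 7 of 61 (11.5%, 5.67 to 21.8) and 54.6% (48.8 to 60.3), and TAZ4SA in 7 of 61 and 47.9% (42.1 to 53.7). When the regions with YAP-TFE3 and YAP5SA were instead divided into 4 bins at the quartiles of YAP5SA fold enrichment, the TC shares in the weakest bin were 2 of 35 with TFE3 and 17.0% without. They were 1 of 28 and 29.5% in the next bin, and 2 of 19 and 41.1% in the third. In the strongest YAP5SA bin TC was called in 5 of 9 shared regions (55.6%, 26.7 to 81.1) and in 55.1% of the others, and TAZ4SA in 6 of 9 (66.7%, 35.4 to 87.9) and 62.2%. The upper 2 YAP5SA bins hold only 19 and 9 shared regions. The intervals with and without TFE3 stood apart in the middle 2 bins for TC and in the third for TAZ4SA (0 of 19, with an upper bound of 16.8%, against 40.8%), and overlapped in the others. YAP5SA fold enrichment thus moved with the TAZ shares. Its strongest bin held 9 of the 91 shared regions with YAP5SA and 336 of the 1270 regions without TFE3. The part of YAP5SA strength in the pooled difference was not tested beyond these bins.

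**Figure D4:**
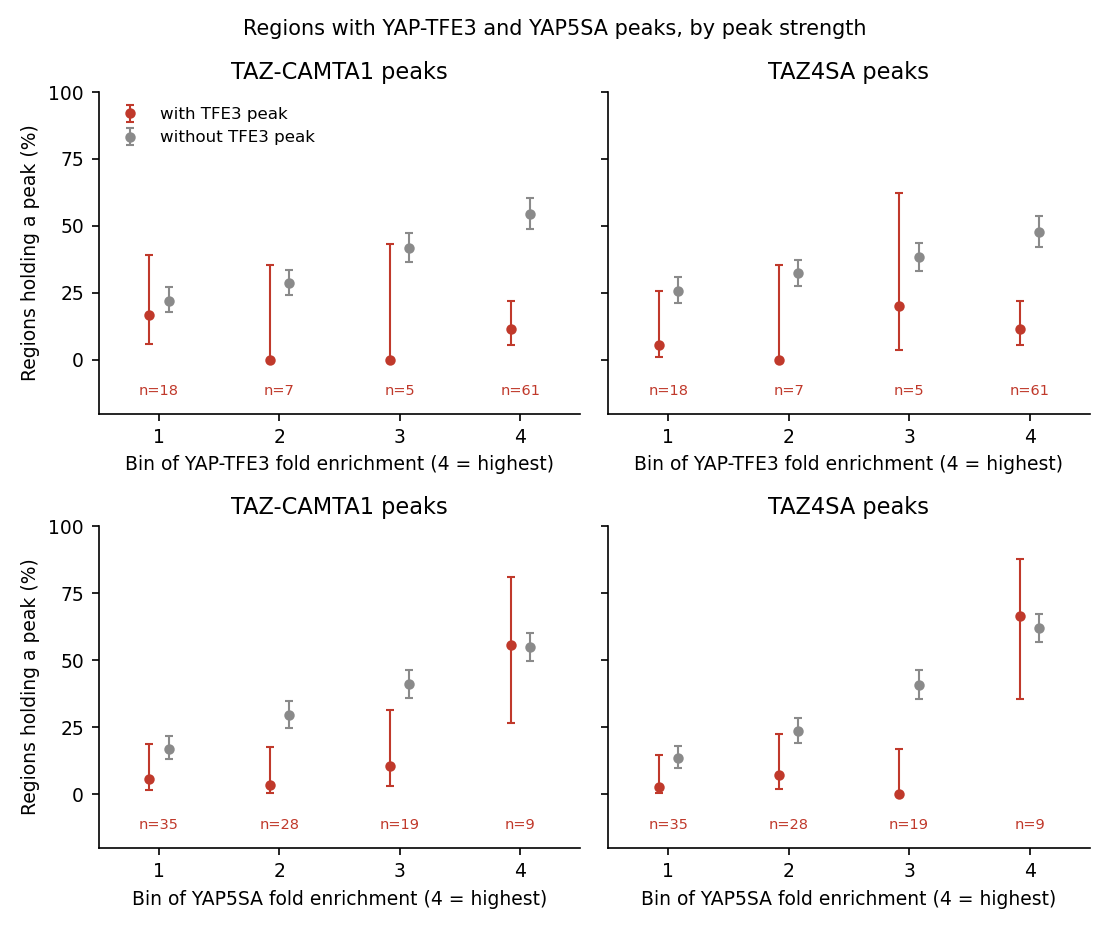
Share of regions holding a TAZ-CAMTA1 (left) or TAZ4SA (right) peak (vertical axis, percent) in 4 bins of YAP-TFE3 (top) or YAP5SA (bottom) fold enrichment, with 95% Wilson intervals, in red with and in grey without a TFE3 peak. The red counts give the shared regions per bin, and in the highest YAP5SA bin the points of 9 shared regions meet the grey ones.

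Few of the shared regions held a TAZ peak, and their medians are given as a description. In the 14 regions with YAP5SA and a TC or TAZ4SA peak, TFE3 fold enrichment had a median of 4.39 (3.57 to 7.06), against 7.77 (6.55 to 9.0) in the other 77, with intervals that overlap. YAP5SA was ordered the other way, at 6.75 (3.36 to 9.69) against 4.46 (4.17 to 4.89), and these intervals overlap too. YAP-TFE3 was at 7.47 (3.79 to 15.2) against 8.75 (6.83 to 9.84). TFE3 over YAP5SA had a median of 0.931 (0.452 to 1.88) with a TAZ peak and 1.64 (1.47 to 1.86) without, and these intervals overlap as well. The group of 14 was formed after the values were seen.

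All 5 proteins other than CAMTA1 were called together in 5 shared regions. Apart from chr11:85779777-85781057, described above, these had TFE3 peaks well below their YAP-TFE3 peaks. At chr9:132096078-132097068 TFE3 was 4.36-fold enriched, YAP-TFE3 15.2-fold, YAP5SA 9.69-fold, TC 11.7-fold and TAZ4SA 8.08-fold. At chr20:62065848-62066952 the order was similar, with 5.15 for TFE3, 15.4 for YAP-TFE3, 10.2 for YAP5SA, 5.27 for TC and 7.13 for TAZ4SA. The remaining regions were chr5:131723186-131724537 (3.67 for TFE3 and 9.61 for YAP-TFE3) and chr20:55362374-55364059 (3.57 and 7.96), both with YAP5SA at 7.90. In these 4 regions full-length TFE3 was the least enriched of all 5 proteins.

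CAMTA1, a DNA-binding protein unrelated to TFE3 and YAP, was called in 7 of 236 shared regions (2.97%, 1.44 to 5.99), near the 2.38% of all merged regions. That background is set by the CAMTA1 list itself. In YAP-TFE3 regions without TFE3 it was called in 4 of 3080 (0.130%), which was 2.84 points (1.30 to 5.87) below the shared regions. The share did not follow YAP5SA, with 3 of 91 and 4 of 145 (difference 0.538 points, -4.12 to 6.72). No TFE3-alone region held CAMTA1 (0 of 62, which allows up to 4.84%).

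The 7 CAMTA1 regions were not of 1 kind. At chr11:20408748-20409310 CAMTA1 was 10.9-fold enriched, YAP-TFE3 8.64-fold and TFE3 6.49-fold, and at chr20:23342130-23342769 the values were 10.5, 11.0 and 8.55. Both lacked YAP5SA. At chr7:104652898-104653854 CAMTA1 was at 12.6, TC at 15.1, YAP-TFE3 at 13.0, YAP5SA at 6.61 and TFE3 at 3.83, the only 1 of the 7 with a TC peak. At chr3:57678450-57679109 TFE3 (16.6) and YAP-TFE3 (11.0) were well above CAMTA1 (4.67) and YAP5SA (4.68). At chr5:137910726-137911468 CAMTA1 was at 5.78, YAP-TFE3 at 6.70, YAP5SA at 4.06 and TFE3 at 3.98, and at chr11:65189176-65190281 CAMTA1 was at 3.89, YAP-TFE3 at 9.61 and TFE3 at 5.15. The last, chr22:18721209-18721526, had all 3 proteins between 1.60-fold and 1.72-fold over a TFE3 background of 82.0.

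The EV IgG list held 29 peaks, 4 of them on the chromosomes used here, and 0.0306% of all merged regions overlapped one. None of the shared regions did (0 of 236, which allows a share of up to 1.27%). An IgG immunoprecipitation from EV cells does not show what the Flag antibody recovers without a Flag-tagged protein, which was not measured in these lists.

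TFE3 and YAP-TFE3 summits coincided closely. The distance between them had a median of 15 bp (13 to 18) over the 236 regions, with quartiles of 7 and 32 bp and a maximum of 1081 bp. It was within 25 bp in 160 regions (67.8%) and within 50 bp in 197 (83.5%, 78.2 to 87.7). The classes did not differ beyond their intervals, with medians of 14 bp (10 to 18) with YAP5SA and 16 bp (13 to 20) without. For scale, the regions were 233 to 4570 bp wide, with a median of 663 bp with YAP5SA and 429 bp without. Summits can lie no farther apart than their region is wide, so the choice of regions limited these distances in advance.

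YAP5SA summits lay as close. In the 91 regions the TFE3 to YAP5SA distance had a median of 18 bp (11 to 24), and the YAP-TFE3 to YAP5SA distance 16 bp (12 to 24). In YAP-TFE3 and YAP5SA regions without TFE3 the latter was 35 bp (32 to 38). Those summits were within 25 bp in 58 of 91 shared regions (63.7%, 53.5 to 72.9) and in 516 of 1270 others (40.6%, 38.0 to 43.4). At 200 bp the shares no longer differed beyond their intervals (86.8% and 87.9%). YAP-TFE3 summits held more fragments in the shared regions, with medians of 137 and 65, and the part of this in the distances was not tested. YAP5SA summits held 80 and 77.

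TAZ summits lay farther away by their medians. The TFE3 summit was a median of 185 bp (37 to 735) from the TC summit in 11 regions and 154 bp (11 to 267) from the TAZ4SA summit in 11 regions. From YAP-TFE3 the medians were 84 bp (22 to 700) and 100 bp (30 to 242) in the same regions. Outside the TFE3 list, YAP-TFE3 lay 35 bp (32 to 42) from TC in 593 regions and 38 bp (34 to 43) from TAZ4SA in 505. The intervals of the small groups are wide, and those from YAP-TFE3 include the medians outside the TFE3 list. For the 7 CAMTA1 regions the TFE3 to CAMTA1 distance ran from 17 to 270 bp with a median of 70 bp.

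**Figure D5:**
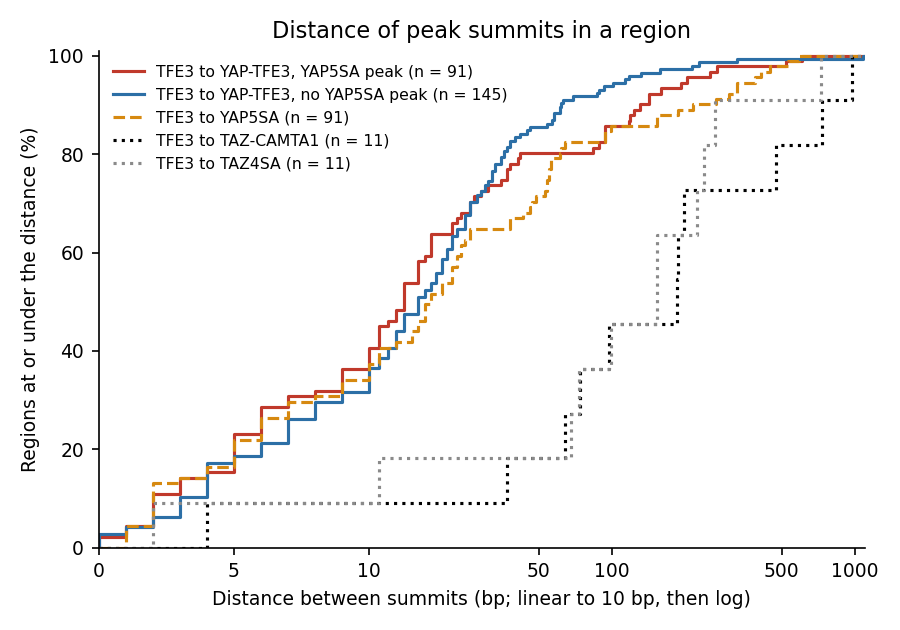
Cumulative share of shared regions (vertical axis, percent) by distance between 2 summits (horizontal axis, bp, linear to 10 bp and then logarithmic). The curves of TFE3 to YAP-TFE3 and TFE3 to YAP5SA rise together, with medians of 14 to 18 bp, and those to TAZ-CAMTA1 and TAZ4SA, with 11 regions each, rise later.

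Shared regions were scattered over the genome. They lay on 22 of 23 chromosomes, with none on chromosome 18, and the median gap to the nearest other shared region was 1704 kb. Another shared region lay within 100 kb of 29 (12.3%, 8.69 to 17.1), whereas 1718 of the 3080 YAP-TFE3 regions without TFE3 (55.8%) had another of their own kind that near. The larger number of the latter shortens their gaps, so these shares are not a like comparison. Shared regions were 11.0% on chromosome 5 (26 regions), 9.75% on chromosome 11 (23) and 8.05% on chromosome 1 (19). Compared with YAP-TFE3 regions without TFE3, the share was higher on chromosome 12 (7.20% and 2.73%, difference 4.48 points, 1.74 to 8.54), chromosome 19 (7.20% and 3.38%, 1.08 to 7.90 points) and chromosome 4 (2.97% and 1.10%, 0.28 to 4.91 points). It was lower on chromosome 20 (3.81% and 8.41%, -6.67 to -1.19 points), chromosome 5 (11.0% and 16.2%, -8.86 to -0.41 points) and chromosome 7 (5.93% and 9.97%, -6.65 to -0.13 points). These are the 6 of 23 chromosomes whose interval excludes 0, and the intervals are not adjusted for 23 comparisons.

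The edge of the class was not sharp. The shortest overlaps of TFE3 and YAP-TFE3 peaks were 132 bp at chr3:64194584-64195226 (TFE3 4.01-fold, YAP-TFE3 3.75-fold, summits 228 bp apart), 138 bp at chr12:2986120-2986550 (5.32 and 3.19) and 162 bp at chr12:53645704-53646107 (4.45 and 4.42). Just outside it, a TFE3 peak lay 76 bp from a YAP-TFE3 peak at chr13:100741376-100741773 (TFE3 3.61-fold), 243 bp at chr7:70448014-70448286 (4.62) and 306 bp at chr20:25290708-25291132 (4.71, with YAP5SA at 3.79). In all, 6 of the 62 TFE3-alone regions had a YAP-TFE3 peak within 1000 bp, and their median gap was 138 kb.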

How the data were processed

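Libraries, groups and constructs were taken from the sample descriptions. Per the study's methods, the authors pooled replicate reads, used Atropos for trimming and BWA-MEM for alignment to GRCh37 (the sample notes name hg38, but the lists use GRCh37 scaffold names), removed multi-mapping reads and greylisted regions, and called peaks from fragments with macs2. The highest q was 0.0993. Which libraries set the background of each list is not given in the sources used here.

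Per list, the authors deposited positions, a display score (not used), fold enrichment (a ratio), p-values and q-values as −log10 values, and a summit offset. The fold enrichment, −log10 and offset values were used as deposited.

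Here, peaks sharing at least 1 bp were merged, and the peak with the highest −log10 q represented a list in a region. Whole fragments and backgrounds were recovered from fold enrichment and p by the caller's formula for 99.3% to 100% of peaks, after a test on simulated data. The simulated peaks did not cover the highest backgrounds or the lowest and highest fold enrichments given above. Fragment coverage is the lowest background shared by several peaks, divided by the scaling of the list. Intervals are at 95%, and a share of 0 is given with the limit 3 counts allow. Python 3.11.15, pandas 2.3.3, scipy 1.17.1 and statsmodels 0.14.6 were used.

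The regions, lists and comparisons were chosen with earlier results of these data known. Named regions were the 8 with the highest TFE3 −log10 q in each class, the 3 highest and 3 lowest ratios of YAP-TFE3 to TFE3, regions with CAMTA1, regions with all 5 other proteins, and those nearest the edge of the class. Genes, motifs and sequences of the regions were not analysed here. The supplied reference is of another build, and coordinates were not converted.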

Additional observations from a re-analysis of the deposited data

Results flagged for a closer look

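On unplaced scaffolds, which were not part of the regions above, 90 merged regions held both a TFE3 and a YAP-TFE3 peak. Of these, 17 also held an EV IgG peak and 73 did not. They lay on 13 scaffolds, and 78 held a YAP5SA peak. Median fold enrichment was 1.95 for TFE3 and 1.94 for YAP-TFE3, below the medians on chromosomes of 5.76 and 6.28. Of the 29 EV IgG peaks, 25 lay on scaffolds. The 73 regions are given because both proteins had peaks there outside the main measurement without an IgG peak. The lack of an IgG peak does not show that they are sites of TFE3 or YAP-TFE3.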

How the results depend on the processing

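No paired analysis was possible because each list comes from pooled replicates, which also means that none could be left out in turn. Of 61 alternative values over 16 results and 9 settings, 54 were labelled the same, 7 moved and none changed direction. Those labelled the same stayed within the interval of the reported value. Counts and ratios of class medians have no interval, and theirs stayed within 1.5 times the reported value. With 50% reciprocal overlap of TFE3 and YAP-TFE3 peaks, 192 regions remained. The share of TFE3 regions with YAP-TFE3 was then 64.4%, the shares with TAZ-CAMTA1 and TAZ4SA were 1.56% and 2.08%, and the difference in TAZ-CAMTA1 share with minus without YAP5SA was 1.99 points (-2.24 to 8.91). The same difference for TAZ4SA was 3.40 points (-1.23 to 10.9). Both differences were thus smaller without the regions that the 50% rule leaves out. That rule drops peaks that overlap in part and also a narrow peak within a wide peak. Which of these applied in the dropped regions was not tested. A YAP5SA list as short as the TFE3 list put YAP5SA in 3.81% of shared regions, which by construction follows list length. Among regions at or above 8.37-fold in YAP-TFE3, the differences in TAZ-CAMTA1 and TAZ4SA share with minus without TFE3 were -55.8 and -40.4 points. The cause of these moves was not tested. This setting, the one without regions under 3-fold in both lists and the one without chromosome 5 were chosen after seeing the data. Gene, motif and sequence alternatives were not run. Depth limits the TAZ-CAMTA1, TAZ4SA and CAMTA1 lists most, where median summits held 19 to 22 fragments, against 59 to 70 in the others.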
